A study of Caenorhabditis elegans with 11 samples.

Results

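The genes of the X chromosome of Caenorhabditis elegans were followed through adult life under 2-deoxy-D-glucose (DOG), a glucose analogue that cannot pass through glycolysis. X-linked genes were the rows of the counts table with X as their chromosome and at least 100 counts summed over the 11 libraries. This held for 2146 of the 5793 rows on the X and for 14773 of the 45461 rows in all. They were set beside the 10236 genes on autosomes II to V with the same minimum, while chromosome I was left out of the autosomal set and enters only where it is named. Of the remaining rows on the X, 1837 had no count in any library and 1810 had between 1 and 99. The RefSeq gene table of WBcel235 held 2104 of the 2146 X-linked genes, placed every one of them on the X, and gave 2047 as protein coding, 46 as pseudogenes and 9 as non-coding RNAs.

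All RNA-seq libraries were made from whole animals of the wild-type strain N2 (var. Bristol) that were moved after the fourth larval stage to agar plates with 5 mM DOG and heat inactivated bacteria. Worms were collected at the age of 1 day (3 libraries), 5 days (3 libraries), 10 days (3 libraries) and 20 days (2 libraries). Offspring were removed every day by letting the adults settle, which does not remove eggs still inside the mother. All 4 ages carried the same treatment, the control worms of the study were not analysed here, and therefore every difference is one between ages under DOG.

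In hermaphrodites a dosage compensation complex related to condensin binds along both X chromosomes and lowers their transcription in somatic cells. In the germline this complex is not at work. There the X is held silent for most of germ cell development by repressive chromatin that depends on the MES proteins, with some X-linked genes switched on late in oocyte development. Genes needed in every germ cell and in sperm are therefore scarce on the X, whereas genes of muscle, neurons and intestine are common there, among them most yolk protein genes. The gonad fills much of a young hermaphrodite, so RNA of whole worms mixes somatic transcripts with those of a germline that reads little from the X.

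Between 23648292 and 58499127 counts on genes were available per library, and the log2 changes rest on a spread between replicates of 4.14% (biological coefficient of variation). The replicates of an age differed by more than sampling noise in every pair (chi-square from 5.05 to 19.9 for each degree of freedom). Nothing says that they came from separate cultures, so p-values measure only the spread between these libraries. Markers of every tissue expected in whole worms were present at all ages. Of the single markers, hlh-1, a regulator of body wall muscle, and 3 of 58 rows of sperm genes were listed at 0. Levels are given as CPM (a gene's counts scaled to the library's total on all genes) for a single gene between ages and as RPKM (CPM per kilobase of exon) wherever genes are compared with each other. A gene was called higher or lower where the quasi-likelihood test of edgeR gave a p under 0.01 after Benjamini-Hochberg adjustment over all 14773 genes.

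The X took a smaller part of the counts at each later age. Of the counts on the X and on II to V together, the X held 10.5% ± 0.101 (SD, n = 3) in 1-day old worms, 8.33% ± 0.151 (n = 3) in 5-day old, 7.77% ± 0.225 (n = 3) in 10-day old and 7.53% ± 0.102 (n = 2) in 20-day old worms. The 3 libraries of 1 day lay between 10.4% and 10.5% and those of 5 days between 8.16% and 8.46%, without overlap between these ages. The libraries of 10 days (7.58 to 8.02%) and of 20 days (7.46 to 7.60%) overlapped. In bulk samples fewer somatic cells and less RNA per cell cannot be told apart, and neither can be told apart from more RNA of other cells.

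A few genes took a large part of the counts on the X. The yolk genes vit-1 to vit-5, which the intestine uses to provision oocytes, made up 20.8% ± 0.363 of all counts on the X at 1 day and 23.6% ± 1.05 at 5 days (SD, n = 3 each). At 10 days they made up 15.3% ± 1.12 (SD, n = 3) and at 20 days 4.32% ± 0.180 (SD, n = 2). Without them the share of the X was 8.48%, 6.48%, 6.66% and 7.23% at the 4 ages, so that both libraries of 20 days (7.17 and 7.29%) lay above all libraries of 5 and 10 days (6.44 to 6.78%). The lowest share moved from 20 days to 5 days in the same way when the 10 X-linked genes with the most counts were left out (7.66%, 5.81%, 6.0% and 6.67%). These 10 genes include vit-1, vit-2 and vit-5 and were picked by the same counts, so this is no separate check. No p is given for these sums, since the genes were chosen with earlier results of these data known.

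**Figure D1:**
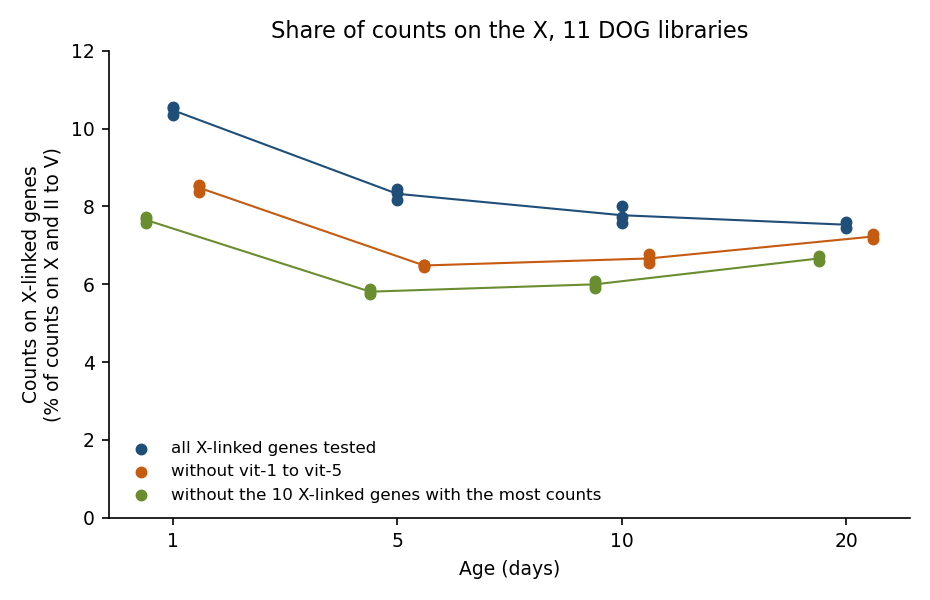
Counts on X-linked genes in % of the counts on the X and II to V (vertical axis from 0) in each of the 11 libraries (points) at 4 ages (horizontal axis, evenly spaced), with lines through the mean of each age. With all genes the mean goes from 10.5% at 1 day to 7.53% at 20 days, whereas without vit-1 to vit-5 it is lowest at 5 days (6.48%) and reaches 7.23% at 20 days.

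Markers of the germline were followed beside these shares. None of 18 germ cell and meiosis genes and none of 24 oocyte and eggshell genes lay on the X, and none of 58 rows of sperm genes did. The summed level of the oocyte list was 22758 CPM ± 463 in 1-day old worms, 31176 ± 379 in 5-day old, 26059 ± 63.3 in 10-day old (SD, n = 3 each) and 23173 ± 106 in 20-day old worms (SD, n = 2). Between 1 and 5 days 23 of its 24 genes were called higher and 1 lower, with a median log2 change of 0.42, against 34.5% and 34% of all genes tested. The summed germ cell list stood at 3274 CPM ± 59.4, 4253 ± 47.7, 4016 ± 18.1 (SD, n = 3 each) and 3922 ± 4.95 (SD, n = 2), and thus also highest at 5 days. Sperm genes went from 109 CPM ± 7.35 to 12.8 ± 0.337 (SD, n = 3 each) between 1 and 5 days, with 26 of the 28 tested called lower and 1 higher. Their sum was 12.1 CPM ± 0.863 at 10 days (SD, n = 3) and 21.6 ± 5.10 at 20 days (SD, n = 2). In that interval 12 were called higher and 1 lower, against 28.3% and 28.2% of all genes tested. The oocyte and germ cell sums were highest at 5 days, the age at which the X without its yolk genes had its lowest share, and their part in that share was not tested.

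A typical X-linked gene stood at a lower level than a typical autosomal gene. The median over X-linked genes was 3.78 RPKM ± 0.0717 in 1-day old worms, 2.85 ± 0.0255 in 5-day old, 2.90 ± 0.0703 in 10-day old (SD, n = 3 each) and 3.60 ± 0.0681 in 20-day old worms (SD, n = 2). On II to V it was 7.03, 6.16, 6.12 and 6.96 RPKM at the same ages. The ratio of both medians was 0.538 ± 0.00336 in 1-day old worms, 0.462 ± 0.00852 in 5-day old, 0.474 ± 0.0104 in 10-day old (SD, n = 3 each) and 0.518 ± 0.00476 in 20-day old worms (SD, n = 2). The ratio was therefore lowest at 5 and 10 days, whose libraries overlapped, and each library of 1 and 20 days lay above them. This ratio depended on which genes were admitted. With every gene of at least 1 count it was 0.959, 0.985, 0.894 and 0.840 at the 4 ages, so that 5 days was then the highest age and 20 days the lowest. With at least 100 counts in every library it was 0.346, 0.271, 0.321 and 0.359, again lowest at 5 days. Of the protein coding rows, 78% on the X and 70.3% on II to V had passed the minimum of 100 summed counts.

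Between 1 and 5 days X-linked genes were more often called lower than higher. Of the 2146 genes 1001 (46.6%) were called lower and 407 (19%) higher, whereas of all genes tested 34% were called lower and 34.5% higher. On II to V the shares were 32.2% lower and 36% higher. The median log2 change was -0.37 over X-linked genes and 0.02 over II to V, and each of the autosomes I to V had a median between -0.04 and 0.09. With a change of at least 2-fold added to the test, 538 X-linked genes (25.1%) were lower and 102 (4.75%) higher, against 16.4% and 8.35% on II to V. The distance between both medians was -0.39 with the minimum of 100 summed counts, -0.31 for genes with 100 counts in every library and -0.061 when all genes with at least 1 count were admitted.

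After 5 days the balance of the calls on the X turned. Between 5 and 10 days 644 X-linked genes (30%) were called higher and 377 (17.6%) lower, with 23.7% higher and 24.6% lower among all genes tested and 22.3% and 26.1% on II to V, and the medians were 0.13 on the X and -0.02 on II to V. Between 10 and 20 days 786 (36.6%) were called higher and 406 (18.9%) lower, against 28.3% and 28.2% of all genes tested and 27.1% and 30% on II to V, with medians of 0.18 and -0.01. With a 2-fold change added to the test, the X showed no surplus of rises between 5 and 10 days. There 6.62% were higher and 6.76% lower, against 5.13% and 5.53% on II to V. Between 10 and 20 days 13.4% were higher and 7.27% lower on the X, against 11.9% and 7.15% on II to V. Scaling by library size alone raised the median of all genes between 10 and 20 days from 0.01 to 0.11, and that of the X to 0.28. The distance between the X and II to V was 0.18 under either scaling. Over 1 to 20 days the same scaling raised the median of all genes to 0.14 and turned that of the X from -0.01 to 0.14.

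Over the whole interval from 1 to 20 days, the medians of the X and of II to V lay close together at the minimum of 100 summed counts. Then 805 X-linked genes (37.5%) were called higher and 797 (37.1%) lower, near the 38.5% and 38% of all genes tested and the 38% and 38.6% on II to V, and the median log2 change was -0.01 on the X and -0.02 on II to V. The distance between these medians, 0.01, was 0.16 with all genes of at least 1 count and 0.11 with 100 counts in every library, where 461 X-linked genes were called higher and 386 lower. A 2-fold fall was more frequent on the X (24.9%, against 20.5% on II to V). Neighbouring intervals share the libraries of 1 age, so these numbers are no separate evidence.

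**Figure D2:**
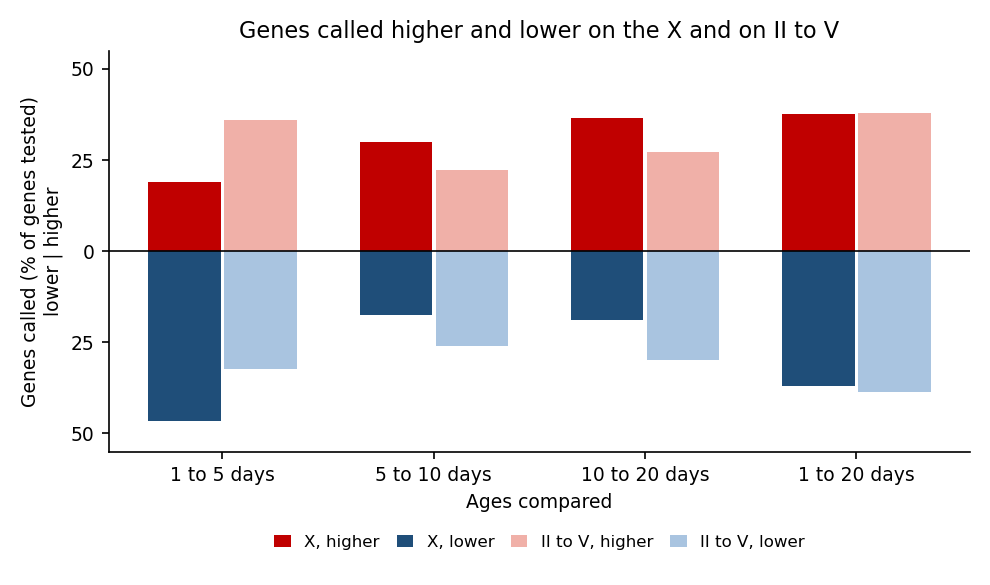
Genes called higher (above 0) and lower (below 0) in % of the genes tested (vertical axis) for 4 pairs of ages (horizontal axis), on the X (dark bars) and on II to V (pale bars). Between 1 and 5 days 46.6% of X-linked genes were called lower, against 32.2% on II to V, and between 10 and 20 days 36.6% were called higher, against 27.1%.

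**Figure D3:**
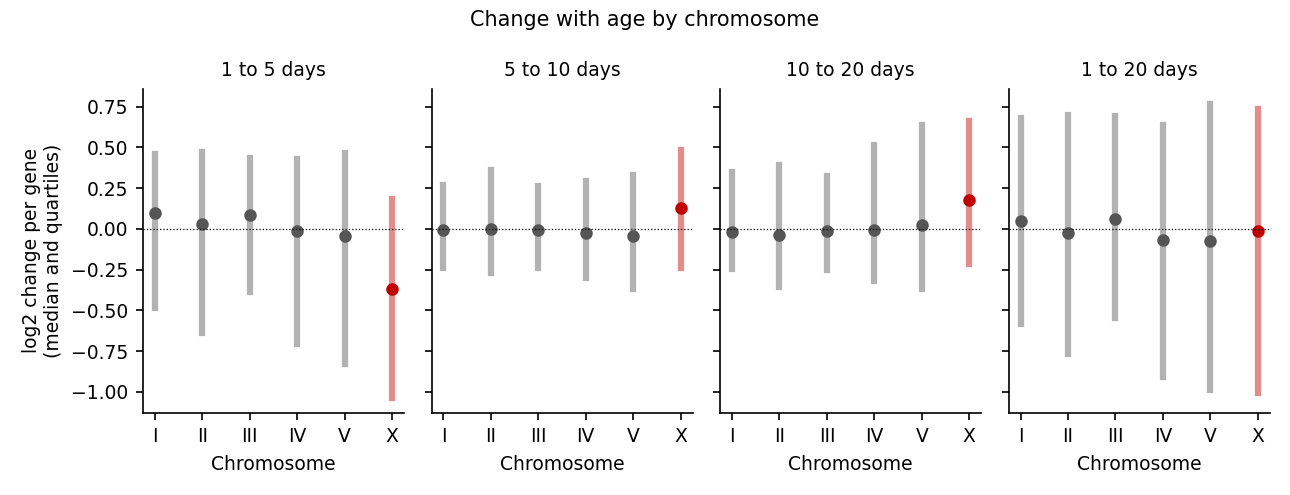
Median (point) and quartiles (bar) of the fitted log2 change per gene (vertical axis) on each chromosome (horizontal axis, X in red) for 4 pairs of ages. The X has the lowest median between 1 and 5 days (-0.37) and the highest between 5 and 10 days (0.13) and between 10 and 20 days (0.18).

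The course of single genes followed these counts. A fall by 5 days followed by at least 1 later rise and no later fall was found for 396 X-linked genes (18.5%), against 10.2% on II to V and 11.3% of all genes tested. In the opposite course, up by 5 days and down later, were 104 X-linked genes (4.85%), against 14.2% on II to V and 13.1% of all genes tested. By mean CPM, 38% of X-linked genes had their highest level at 1 day and 44.3% at 20 days, but only 8.43% at 5 days, where 20.4% of the genes on II to V had theirs. In none of the 3 intervals were 257 X-linked genes (12%) called, against 10.2% on II to V and 10.3% of all genes tested.

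The changes were spread along the whole chromosome. When the X-linked genes were divided by their order in WBcel235 into 10 groups of 210 or 211 genes, the median log2 change between 1 and 5 days was negative in each group, from -0.52 to -0.24. Between 5 and 10 days it was positive in each (0.03 to 0.27), as it was between 10 and 20 days (0.08 to 0.25). The lowest early median was that of the fourth group, in which 114 of 210 genes were called lower and 36 higher.

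The early fall on the X differed between levels and hardly showed in the median of the genes from 10 to 100 RPKM. In the 557 X-linked genes under 1 RPKM the median log2 change was -0.78 between 1 and 5 days, against -0.45 for such genes on II to V, and the 894 genes from 1 to 10 RPKM had -0.42, against -0.25. The 583 genes from 10 to 100 RPKM had a median of -0.02, against 0.25. The 76 genes of at least 100 RPKM had -0.55, against 0.04, and went on down to -1.03 over 1 to 20 days, where such genes on II to V had -0.17. Thus in each of the 4 classes the early median was lower on the X than on II to V. Between 5 and 10 days the medians were 0.11 on either under 1 RPKM, and -0.06 on the X and -0.02 on II to V from 100 RPKM on. In the classes between, the X stood higher (0.13 against 0.03 and 0.16 against -0.08). Between 10 and 20 days the X was lower in the top class only (-0.31 against -0.16).

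The yolk genes were down-regulated with age. vit-2 (C42D8.2), which took more counts than any other X-linked gene, stood at 10597, 10422 and 10672 CPM in the 1-day old worms, at 8822, 8283 and 9629.7 in 5-day old, at 5162, 4954 and 5924 in 10-day old and at 2028 and 1889.5 in 20-day old worms. No age overlapped with the next, and its fall from 1 to 20 days came to -2.58 on the log2 scale (SE 0.07, adjusted p = 1.8e-16, quasi-likelihood test of edgeR with Benjamini-Hochberg adjustment). vit-5 was the exception among them in the first interval. It went from 1968, 2036 and 2212 CPM in 1-day old worms to 4987, 4458 and 5073 in 5-day old, 3264, 3083 and 3872 in 10-day old and 542 and 476 in 20-day old worms. It thus rose between 1 and 5 days (log2 change 1.18, SE 0.07) and then fell below its first level, while the other 4 were called lower in that interval. For vit-4 this early call (log2 change -0.40) was lost with DESeq2.

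The other yolk genes almost vanished. vit-1 had 2998, 3011 and 3075 CPM in 1-day old worms, a mean of 698 ± 27.2 in 5-day old and of 205 ± 34.9 in 10-day old (SD, n = 3 each), and 13.8 and 10.1 in 20-day old worms. vit-3 and its neighbour vit-4 stood at 794 CPM ± 39.3 and 320.2 ± 16.8 (SD, n = 3) at 1 day. At 20 days vit-3 had only 1.34 and 0.513 CPM, or 71 and 30 counts, and vit-4 had 1.68 and 0.632. All 5 genes were called lower over 1 to 20 days, with a median log2 change of -8.14. The replicates at 20 days were far apart for vit-3 and vit-4, and the log2 change of vit-3 between 10 and 20 days, -6.0, ranged from -6.82 to -5.45 when single libraries were left out. The lower value was reached without the first and the upper without the second library of 20 days. vit-3, vit-4 and vit-5 are near-identical copies, so how their shared reads were counted is uncertain. vit-6, the yolk gene on chromosome IV, stood at 24311 CPM ± 394 at 1 day (SD, n = 3) and at 5498 ± 264 at 20 days (SD, n = 2), with a log2 change of -2.29.

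**Figure D4:**
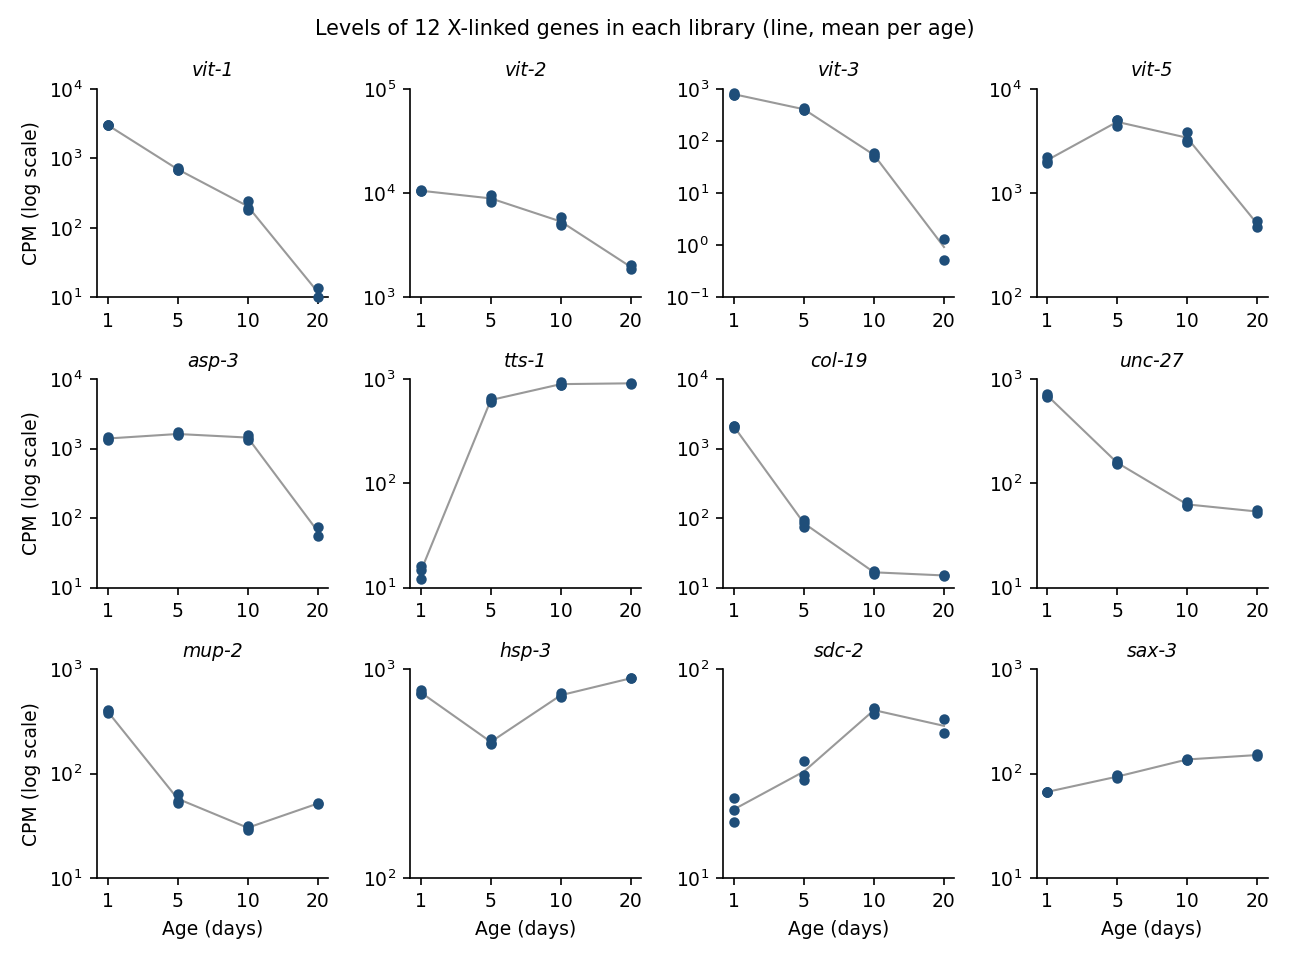
CPM (vertical axis, log scale, its range differs between panels) of 12 X-linked genes in each library (points) at 4 ages (horizontal axis, evenly spaced), with lines through the mean of each age. vit-1 goes from 3028 to 11.9 CPM, tts-1 from 14.4 to 913, and hsp-3 is lowest at 5 days with 449 CPM.

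Genes that count the X chromosomes and set dosage compensation were mostly higher in old worms. sdc-2 (C35C5.1), which brings the dosage compensation complex to the X, had 24.2, 21.3 and 18.4 CPM in 1-day old worms, 36.6, 31.1 and 29.5 in 5-day old, 64.8, 60.9 and 65.6 in 10-day old and 57.9 and 49.3 in 20-day old worms. Its log2 change over 1 to 20 days was 1.2 (SE 0.09, adjusted p = 2.1e-10, quasi-likelihood test of edgeR with Benjamini-Hochberg adjustment). sdc-1, its X-linked partner, rose from 23.9 CPM ± 1.85 (SD, n = 3) to 62.3 ± 1.62 (SD, n = 2). Of the 8 members of the complex that lie on autosomes, 7 were also called higher and 1 lower, with a median of 1.09. Of all genes tested 38.5% were higher and 38% lower over this interval. Among the X signal elements, which report the number of X chromosomes in the embryo, sex-1 (32.7 to 63.6 CPM) and fox-1 (16.8 to 25.7 CPM) were called higher at 20 days than at 1 day. ceh-39 was not called over that interval (38.2 and 48.3 CPM), and xol-1, the switch they repress, stayed near 1 CPM at each age and was called in no interval. Between 10 and 20 days sdc-2, sex-1 and ceh-39 were called lower (log2 changes -0.36, -0.22 and -0.32). Of the 8 autosomal members of the complex 1 was then higher and 1 lower. lin-15B, which acts in the repression of germline genes in the soma, rose from 48.5 CPM ± 3.50 (SD, n = 3) to 94.9 ± 1.63 (SD, n = 2). Most of these genes are also expressed in oocytes and embryos, whose list of early zygotic genes summed to 23 CPM in 1-day old worms, 28.5 in 5-day old, 45.1 in 10-day old and 32.9 in 20-day old worms. In that list vet-1 had by far the most counts (9326, with pes-10 next at 2080). Between 1 and 5 days 4 of its 8 genes tested were higher and 3 lower (median -0.24), against 34.5% and 34% of all genes tested. The part of eggs and embryos in the rise of the genes named above was not tested.

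Of 18 X-linked muscle genes, 16 were called lower between 1 and 5 days and 1 higher, with a median log2 change of -1.90, against 46.6% lower and 19% higher on the whole X and 34% and 34.5% of all genes tested. unc-27 (ZK721.2), a troponin I of body wall muscle, had 698, 678 and 723 CPM in 1-day old worms, 155, 157 and 163 in 5-day old, 61.6, 65.7 and 61.4 in 10-day old and 55.3 and 52.2 in 20-day old worms. Each age lay wholly below the one before it, with a log2 change of -3.85 over 1 to 20 days (SE 0.05, adjusted p = 2.8e-21, quasi-likelihood test of edgeR with Benjamini-Hochberg adjustment). The troponin T gene mup-2, the myosin light chain genes mlc-1 and mlc-2, the calsequestrin csq-1 and the actin act-4 fell in this first interval as well, by log2 changes of -2.82, -1.90, -2.15, -1.91 and -2.01. The reads of mlc-1 and mlc-2, near-identical neighbours, cannot be divided with certainty.

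After 5 days single muscle genes took different courses. mup-2 had its lowest level at 10 days, with 30.1, 31.7 and 28.9 CPM, and rose to 52.4 and 50.9 at 20 days (log2 change 0.67, SE 0.06). act-4 likewise rose from 202 CPM ± 11.5 (SD, n = 3) to 341 ± 6.06 (SD, n = 2). csq-1 went on falling from 37.9 CPM ± 1.59 (SD, n = 3) to 19.4 ± 2.17 (SD, n = 2). myo-2, a myosin heavy chain of the pharynx, was lowest already at 5 days, with 33.3 CPM ± 3.52 after 177 ± 11.4 at 1 day, and rose through 62.6 ± 3.25 (SD, n = 3 each) to 82.9 ± 1.61 at 20 days (SD, n = 2). Of the 18 genes 7 were called higher and 4 lower between 10 and 20 days, near the shares of all X-linked genes (36.6% and 18.9%). Over 1 to 20 days 38% of all genes tested were lower and 38.5% higher, and 37.1% and 37.5% of all X-linked genes. Of the 18 muscle genes 15 were then lower (median -1.62) and 2 higher. One of these was egl-15, a receptor for fibroblast growth factor, which went from 5.61 CPM ± 0.722 (SD, n = 3) to 22.2 ± 0.330 (SD, n = 2), with a log2 change of 1.81. It was also the 1 gene called higher between 1 and 5 days (0.38), a call lost without the first library of 1-day old worms and without the first (0.24) or the second library of 5-day old worms. The autosomal body wall muscle markers took the same early direction, as all 6 tested were called lower between 1 and 5 days (median -1.93), against 34% of all genes tested.

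Neuronal genes on the X were mostly lower at 5 days than at 1 day, and many were higher again at 20 days than at 10 days. Of 38 listed genes on the X, 37 passed the minimum, 25 of which were called lower and 1 higher between 1 and 5 days (median -0.73), an interval in which 46.6% of all X-linked genes and 34% of all genes tested were lower. Between 10 and 20 days 19 were called higher and 3 lower (median 0.46), against 36.6% and 18.9% of all X-linked genes and 28.3% and 28.2% of all genes tested. Over 1 to 20 days 14 were higher and 12 lower (median -0.0027), near the 38.5% and 38% of all genes tested. unc-2, a voltage-gated calcium channel subunit, stood at 14.7, 11.5 and 11.4 CPM in 1-day old worms, at 9.79, 8.11 and 8.05 in 5-day old, at 14.2, 13.5 and 14.6 in 10-day old and at 22.2 and 20.5 in 20-day old worms. Its libraries of 5 days were the lowest and those of 20 days the highest. unc-18, which serves synaptic vesicle fusion, took the same course, with mean levels of 49.8, 43.4, 49.1 and 73.5 CPM. syg-1, a guide of synapse position, fell from 4.70 CPM ± 0.263 to 2.24 ± 0.255 (SD, n = 3 each) between 1 and 5 days and rose to 8.43 ± 0.507 (SD, n = 2) at 20 days.

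Other neuronal genes deviated from this course. sax-3, the Robo receptor of axon guidance, was the 1 gene called higher between 1 and 5 days, and went from 66.8 CPM ± 0.476 to 93.6 ± 3.28 and 137 ± 0.911 (SD, n = 3 each) and to 151 ± 3.44 at 20 days (SD, n = 2). vab-3, a Pax6 homologue, rose mainly between 5 and 10 days (3.76 to 10 CPM, log2 change 1.41). lin-32, an Atonal homologue, rose in the same interval from 0.108 CPM ± 0.0429 to 1.01 ± 0.135 (SD, n = 3 each), a change at a very low level. mec-7, a tubulin of touch neurons, fell from 11.2 CPM ± 1.03 to 4.06 ± 0.431 by 5 days (SD, n = 3 each) and stood at 3.39 ± 0.399 at 20 days (SD, n = 2), without a recovery. The neuropeptide genes named flp were also mostly lower, with 10 of the 13 tested on the X called lower between 1 and 5 days and 1 higher and 8 lower over 1 to 20 days. In the first interval 46.6% of all X-linked genes and 34% of all genes tested were lower. Over 1 to 20 days 38.5% of all genes tested were higher and 38% lower. Of 10 neuron markers on autosomes 7 were called lower in the first interval (median -0.50), against 34% of all genes tested. In the last, 7 were called higher (median 0.39), against 28.3%. X-linked and autosomal neuronal genes thus moved in like directions.

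Genes on the X that were listed as intestinal were also mostly lower at 5 days, with 9 of 12 called lower and 1 higher (median -1.2). Of all X-linked genes 46.6% were lower and 19% higher, and of all genes tested 34% and 34.5%. Not all of the listed genes are confined to the intestine, aqp-8 among them, so these counts do not stand for that tissue alone. elt-2 (C33D3.1), the GATA factor that keeps the intestine differentiated, had 10.2, 9.53 and 10 CPM in 1-day old worms, 4.37, 4.51 and 4.79 in 5-day old, 6.64, 5.57 and 6.57 in 10-day old and 10.1 in both libraries of 20-day old worms. Its libraries of 20 days lay among those of 1 day, and its log2 change over 1 to 20 days, -0.12, was not called. pept-1, the oligopeptide transporter, and the aquaporin aqp-8 fell much further, from 96.6 CPM ± 2.79 to 12.6 ± 0.215 and from 125 ± 4.71 to 17 ± 1.37 (SD, n = 3 each). Both rose between 5 and 10 days and were lower again at 20 days, with 18.9 and 20.5 CPM.

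The aspartyl protease asp-3 (H22K11.1), among the 10 X-linked genes with the most counts, fell sharply after 10 days. It had 1384, 1352 and 1469.7 CPM in 1-day old worms, 1548, 1622 and 1712 in 5-day old, 1432, 1349.5 and 1555 in 10-day old, and 74.2 and 55.1 in 20-day old worms. The changes between 1 and 5 and between 5 and 10 days were not called, whereas the last one was -4.59 (SE 0.10, adjusted p = 4.4e-17, quasi-likelihood test of edgeR with Benjamini-Hochberg adjustment). Its relative asp-4 rose first, from 379.7 CPM ± 8.30 to 588 ± 7.85 (SD, n = 3 each), and then fell to 147 ± 4.69 (SD, n = 2). Over 1 to 20 days 9 of the 12 genes listed as intestinal were lower and 1 was higher, with a median of -1.29, against 38% and 38.5% of all genes tested. Of 6 intestine markers on autosomes 5 were also lower over this interval and none was higher (median -1.86).

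Collagens of the cuticle were among the steepest falls. Of 21 col genes tested on the X, 19 were called lower between 1 and 5 days and 19 over 1 to 20 days, with medians of -3.13 and -4.37, while the col genes on II to V had -4.33 and -6.50. Of all genes tested 34% and 38% were lower in these intervals. col-19 (ZK1193.1), the collagen of the adult cuticle, went from 2139, 1987 and 2118 CPM in 1-day old worms to 74.8, 85.8 and 92.7 in 5-day old, 16.8, 15.5 and 17.5 in 10-day old and 14.8 and 15.1 in 20-day old worms. The neighbours col-178 and col-179 fell from 848 CPM ± 23 and 311 ± 10.8 (SD, n = 3) to 1.38 ± 0.210 and 0.124 ± 0.0421 (SD, n = 2). The last value rests on 5 and 9 counts. col-183 ran against them in the first interval, from 6, 1 and 3 counts at 1 day to 1117, 1424 and 1488 at 5 days, and fell afterwards to 3.40 CPM ± 0.216 at 10 days (SD, n = 3). Its log2 change between 1 and 5 days, 8.68, ranged from 8.23 to 9.56 when single libraries were left out, the latter without the first library of 1 day. Of 10 epidermal and matrix genes 4 were lower and 1 higher between 1 and 5 days, a share of falls between the 34% of all genes tested and the 46.6% of the X. Over 1 to 20 days let-2, a collagen of the basement membrane, went down from 572 CPM ± 29.9 (SD, n = 3) to 111 ± 2.91 (SD, n = 2), a called change.

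**Figure D5:**
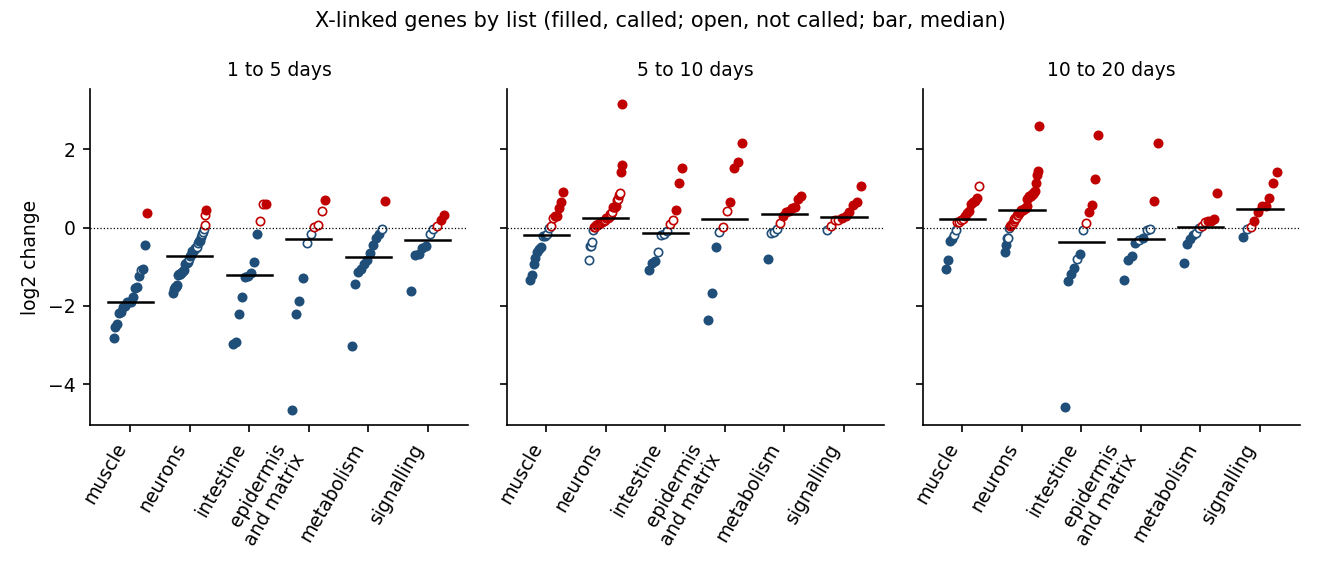
Fitted log2 change (vertical axis) of the X-linked genes of 6 lists (horizontal axis) in 3 successive intervals. Points are genes, filled where called and open where not, and bars are medians. Between 1 and 5 days the medians run from -1.90 for muscle to -0.29 for epidermis and matrix, and between 10 and 20 days neurons (0.46) and signalling (0.47) lie highest.

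Of 13 metabolic and protein folding genes on the X, 12 were tested and 10 of them were called lower between 1 and 5 days, with 1 higher, in an interval with 46.6% of X-linked genes and 34% of all genes tested lower. The other gene, gpd-2, was listed at 0 in every library beside its near-identical neighbour gpd-3, so that the level of neither glyceraldehyde phosphate dehydrogenase gene is certain. sams-1 (C49F5.1), which makes S-adenosylmethionine, had 422, 374 and 384 CPM in 1-day old worms, 52.9, 48.1 and 47.9 in 5-day old, 54.6, 51.5 and 54.8 in 10-day old and 31.1 and 30.4 in 20-day old worms. It fell by a log2 change of -3.82 over 1 to 20 days (SE 0.05). The endoplasmic reticulum chaperone hsp-3 fell and came back, with 794, 763 and 769.6 CPM in 1-day old worms, 461, 441 and 445 in 5-day old, 769.7, 749 and 738 in 10-day old and 909 and 906 in 20-day old worms. pdi-2, which shapes collagens in the same compartment, took the same course (913, 450.2, 785 and 941 CPM). tps-1, a trehalose synthase, was the 1 gene called higher in the first interval, and rose from 23.1 CPM ± 0.717 (SD, n = 3) to 93.2 ± 2.35 (SD, n = 2). pcca-1 and pccb-1, subunits of propionyl-CoA carboxylase, moved together, down to 224 and 275 CPM in 5-day old, up to 294 and 389 in 10-day old and down to 258 and 311 in 20-day old worms.

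Of 10 genes listed as hormone, kinase and timing regulators, 2 were called higher and 5 lower between 1 and 5 days, near the 19% and 46.6% of all X-linked genes. The 2 higher were lin-15A (log2 change 0.31) and lin-15B (0.21), which were also listed with germline X silencing. Over 1 to 20 days 7 were higher (median 0.36), lin-15A and lin-15B among them, and the other 3 were not called. In that interval 38.5% of all genes tested were higher and 38% lower. daf-12, the nuclear receptor of dauer and reproductive decisions, had 20.9, 17.3 and 18.5 CPM in 1-day old worms, 14.6, 13.7 and 13.7 in 5-day old, 14, 14.3 and 15.4 in 10-day old and 25.9 and 27.1 in 20-day old worms. Its log2 change over 1 to 20 days was 0.35 (SE 0.06). sma-5, a MAP kinase that affects body size, rose from 10.4 CPM ± 0.958 (SD, n = 3) to 33 ± 0.217 (SD, n = 2).

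Among the X-linked genes that reached 10 CPM the largest rise over 1 to 20 days was that of tts-1 (F09E10.11), a non-coding RNA found with ribosomes. It had 16, 12.2 and 14.9 CPM in 1-day old worms, 599.9, 628 and 667 in 5-day old, 878, 878 and 937 in 10-day old and 926 and 900.4 in 20-day old worms. The log2 change was 5.43 between 1 and 5 days and 5.85 over the whole interval (SE 0.07, adjusted p = 1.0e-21, quasi-likelihood test of edgeR with Benjamini-Hochberg adjustment), with no call between 10 and 20 days. Next came T23E7.6 (5.63), the astacin protease hch-1 (5.57), which lets embryos leave the eggshell, and the acyltransferase gene oac-14 (5.27). hch-1 was highest at 10 days, with 47.2 CPM ± 0.951 (SD, n = 3) after 0.439 ± 0.101 (n = 3) at 1 day, and stood at 23.2 ± 2.02 (n = 2) at 20 days. Y41G9A.10, F54F7.9 and F47E1.2 rose mainly after 10 days, with Y41G9A.10 going from 17.9 CPM ± 2.09 (SD, n = 3) to 138 ± 6.86 (SD, n = 2).

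Some genes were high at 5 and 10 days alone. T22B7.7 had 21.7, 20.2 and 21.9 CPM in 1-day old worms, 583, 537 and 541 in 5-day old, 306, 306 and 360.1 in 10-day old and 31.6 and 30.6 in 20-day old worms. The dehydrogenase gene dhs-26 likewise went from 2.30 CPM ± 0.282 to 99.8 ± 0.321 and 37.6 ± 3.43 (SD, n = 3 each) and to 3.51 ± 0.775 (SD, n = 2). The lysozyme gene ilys-5 had the largest fall between 10 and 20 days among these genes, from 156, 149 and 179.8 CPM to 1.45 and 0.188, that is 77 and 11 counts. Its log2 change of -7.77 was -9.82 without the first and -6.91 without the second library of 20 days. fipr-21 ran the other way, with 77.1 CPM ± 2.80 in 1-day old worms, 14 ± 1.02 in 5-day old, 7.64 ± 0.107 in 10-day old (SD, n = 3 each) and 107 ± 8.89 in 20-day old worms (SD, n = 2).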

How the data were processed

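Transcript counts from 11 RNA-seq libraries of whole worms under 5 mM DOG at 4 ages were used. Single-end reads had been mapped by the authors to WS220 using TopHat (1.4.1 in the submitters' processing notes). Reads were assigned to genes by htseq-count (union mode), and the deposited values are raw counts without normalization or pooling. Whether strand was used is not given in the sources used here, so antisense or overlapping genes may share reads. Reads that overlap several genes are left out by this mode.

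Ages and replicate numbers came from the sample labels, and no column was left out. The members, gene lists and tests were chosen with earlier results of these data known. Changes were fitted in R 4.3.3 by the quasi-likelihood test of edgeR 4.0.16, which builds on limma 3.58.1, with TMM normalization, 4 ages in one fit without covariates, genes with at least 100 summed counts and a call at an adjusted p under 0.01 (Benjamini-Hochberg over 14773 genes). TMM factors were 0.946 to 1.076. CPM divides by all counts on genes of the library without these factors. RPKM used summed exon lengths of WBcel235, known for 98.3% of the X-linked genes tested. As WS220 and WBcel235 differ, no coordinates are given, and neighbours are by order in WBcel235. Sums and medians over genes carry no test. Python 3.11.15, numpy 2.4.6, pandas 2.3.3 and matplotlib 3.10.9 served for the rest, and the test was first tested on simulated data.

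Named were the X-linked members of 19 lists, the 10 X-linked genes with the most counts, the 8 largest called rises and the 8 largest falls over 1 to 20 days, and 4 each per interval, with at least 10 CPM at the higher age and no overlap between ages. Alternatives were library size, DESeq2 1.42.0 and its size factors, TMM factors from II to V, 2 filters, fits of 2 ages, the replicate block, each library left out and other thresholds. The share of promoters with a motif, also planned, was not analysed here.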

Additional observations from a re-analysis of the deposited data

How the results depend on the processing

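Shares of counts on the X depended on what was summed. Without vit-1 to vit-5 they were 8.48%, 6.48%, 6.66% and 7.23% at 1, 5, 10 and 20 days, without the 10 X-linked genes with the most counts 7.66%, 5.81%, 6.0% and 6.67%, with all counted genes as the denominator 8.05%, 6.38%, 5.92% and 5.75%, and with chromosome I added 8.10%, 6.42%, 5.94% and 5.77%. The ratio of median RPKM at the 4 ages was 0.959, 0.985, 0.894 and 0.840 with a minimum of 1 count, 0.346, 0.271, 0.321 and 0.359 with 100 counts in every library, and 0.596, 0.506, 0.524 and 0.590 from CPM. The median log2 change of the X minus that of II to V (-0.39, 0.15, 0.18 and 0.01 for 1 to 5, 5 to 10, 10 to 20 and 1 to 20 days) was -0.061, 0.10, 0.12 and 0.16 with a minimum of 1 count and -0.31, 0.19, 0.13 and 0.11 with 100 counts in every library. The latter filter left 1002 X-linked genes, of which 207 were called higher and 547 lower between 1 and 5 days, 211 lower between 5 and 10 days, 440 higher and 216 lower between 10 and 20 days, and 461 higher and 386 lower over 1 to 20 days. Requiring a 2-fold change left 102 higher and 538 lower, 142 and 145, 288 and 156, and, over 1 to 20 days, 397 higher. No other planned setting moved a count of calls by over 1.5 times, and with single libraries left out the calls over 1 to 20 days ranged from 747 to 808 higher and from 740 to 799 lower, and between 10 and 20 days from 661 to 796 higher. The median of the X minus that of II to V over 1 to 20 days then ranged from -0.01 to 0.04, on both sides of 0.

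Same-numbered replicates did not deviate together (15 pairs, correlations from -0.114 to 0.042), so the numbers were not taken to pair samples. With the replicate block, 406 X-linked genes were called higher and 1001 lower between 1 and 5 days, and 793 higher and 779 lower over 1 to 20 days. Of the called log2 changes of the named genes none turned its direction under these alternatives. Low counts limit the genes under about 1 CPM.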

Other observations

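Gene families were divided unevenly between the X and the other chromosomes. By symbol, the X held 13 of 30 flp neuropeptide genes, 7 of 15 npr receptor genes, 6 of 15 mec genes of touch neurons, 8 of 20 tsp tetraspanin genes, 14 of 46 ceh homeobox genes and 17 of 53 lgc channel genes, whereas 12.7% of all rows of the table lay on the X. It held none of 30 msp genes, which encode the major sperm proteins, none of 31 rps genes and 2 of 45 rpl genes of the ribosome, none of 8 cct chaperonin genes and none of 12 rpn genes of the proteasome. Families with many copies on autosomal arms were also rare on the X, with 3 of 255 clec genes of C-type lectins, 2 of 222 srh and 5 of 193 str receptor genes, and 1 of 49 math genes. A symbol prefix is a coarse measure, and no test was made.

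Of the families present on both, several had like medians on the X and on II to V between 1 and 5 days, with -0.54 and -0.61 for flp, -0.86 and -0.74 for nlp, -1.07 and -1.0 for mec and -0.69 on either for lgc genes. Others, picked here after their values were seen, had unlike medians. The 16 unc genes on the X, named for uncoordinated movement, had 15 lower and 1 higher between 1 and 5 days and a median log2 change of -1.13, while the 50 unc genes tested on II to V had a median of -0.13. Of all X-linked genes 46.6% were then lower and 19% higher, and of all genes tested 34% and 34.5%. Most of these 16 genes were also members of the muscle and neuron lists above, so they are no separate evidence. The 7 twk potassium channel genes tested on the X had a median of -2.33 over 1 to 20 days, against -0.34 for 22 on II to V. The 12 ttr transthyretin-like genes on the X had 10 lower between 1 and 5 days and 8 higher between 10 and 20 days, with medians of -0.63 and 1.39, against -0.06 and 0.11 for the 35 on II to V. Between 10 and 20 days 36.6% of all X-linked genes and 28.3% of all genes tested were higher. Whether these differences exceed those between other sets of such size was not tested.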
